A study of Mus musculus with 11 samples.

Results

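Endothelial cells line the sinusoids of the adrenal, and 10 genes that mark or serve these cells were followed here: the receptors Kdr, Flt1, Tek, Tie1 and Eng, the junction proteins Pecam1, Cdh5 and Esam, and the surface proteins Plvap and Emcn. Members were all array probes annotated with one of these symbols, 12 of 25697 probes, with 2 probes each for Flt1 and Pecam1 and 1 for each other gene. The groups were 5 mINDY-KO mice, homozygous for a deletion in Slc13a5, which encodes the citrate transporter mINDY, and 5 WT littermates. All were males on a C57B/6J backcross, fed standard chow. Their age is taken as 12 to 16 weeks, which the paper states for its blood pressure experiments. Its array methods state no age. The deleted allele had been made with an Hprt1-Cre transgene, so that it is not restricted to adrenal or endothelial cells. Total adrenal RNA, cortex and medulla together, was hybridized to single-colour Illumina bead arrays, and WT replicate 1 was run on 2 arrays, which were averaged. RNA of the whole gland cannot tell fewer endothelial cells from less RNA per endothelial cell.

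The adrenal cortex is drained by fenestrated sinusoids through which its hormones leave and its blood reaches the medulla. VEGF-A, released by the epithelium, acts on Kdr (VEGFR2), the main signaling receptor, while Flt1 (VEGFR1) binds the same ligand with little signaling and acts as a decoy. Angiopoietins act on Tek (Tie2), with Tie1 as its orphan partner. Angpt1 activates Tek and stabilizes vessels, and Angpt2 opposes it in many settings. Endoglin (Eng) is a coreceptor for BMP and TGF-β ligands. VE-cadherin (Cdh5), PECAM-1 and ESAM hold neighbouring endothelial cells together, Plvap forms the diaphragms of fenestrae and caveolae, and endomucin (Emcn) is a sialomucin of venous and capillary surfaces.

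RefSeq promoter windows, which run from 250 bases before to 50 bases after a transcription start, were at hand for 6 of the 10 genes (Kdr, Flt1, Tek, Tie1, Eng and Emcn). Shown are those of the 3 genes with the lowest fold changes and of Emcn, whose mean was higher, as the regulatory sequence nearest to what was measured (build GRCm38.p6). Capitals mark AGGAAG on either strand (CTTCCT when on the other), a core letter string of ETS factors, which act widely in endothelial genes.
Tie1 (chr4:118489800-118490099, - strand): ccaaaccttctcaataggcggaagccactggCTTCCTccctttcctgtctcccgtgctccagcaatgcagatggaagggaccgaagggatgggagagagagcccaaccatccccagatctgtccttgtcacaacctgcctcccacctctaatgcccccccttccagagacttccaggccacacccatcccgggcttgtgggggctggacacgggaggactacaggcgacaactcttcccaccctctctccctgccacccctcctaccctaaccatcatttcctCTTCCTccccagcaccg
Tek (chr4:94739039-94739338, + strand): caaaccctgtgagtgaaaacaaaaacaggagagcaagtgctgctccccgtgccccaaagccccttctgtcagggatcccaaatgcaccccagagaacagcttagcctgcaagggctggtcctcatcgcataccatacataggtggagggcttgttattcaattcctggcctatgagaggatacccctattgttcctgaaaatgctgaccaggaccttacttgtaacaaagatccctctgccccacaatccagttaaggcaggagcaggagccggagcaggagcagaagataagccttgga
Eng (chr2:32646345-32646644, + strand): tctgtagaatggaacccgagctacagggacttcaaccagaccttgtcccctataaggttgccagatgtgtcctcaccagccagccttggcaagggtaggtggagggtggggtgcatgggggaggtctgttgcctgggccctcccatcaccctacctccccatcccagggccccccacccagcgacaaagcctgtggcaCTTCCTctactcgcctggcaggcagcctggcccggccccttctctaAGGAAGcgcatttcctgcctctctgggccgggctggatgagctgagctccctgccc
Emcn (chr3:137340828-137341127, + strand): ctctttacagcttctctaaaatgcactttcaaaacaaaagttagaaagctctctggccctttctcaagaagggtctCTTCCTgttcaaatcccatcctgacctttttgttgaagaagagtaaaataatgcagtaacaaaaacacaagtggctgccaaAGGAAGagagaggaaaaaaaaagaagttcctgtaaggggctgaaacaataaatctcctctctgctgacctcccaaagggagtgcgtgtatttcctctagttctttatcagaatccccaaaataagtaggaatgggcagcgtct
AGGAAG was present in 4 of the 6 windows, those of Flt1, Tie1, Eng and Emcn, with 2 copies in each, against 35.4% of all 32851 windows. Tek, whose receptor pairs with Tie1, had none. AGATAA, searched for GATA factors, was in the Tek window alone, 11.2% of all windows holding it, and TATAAA in the Flt1 window alone (13.6% of all windows). Each string was searched on both strands, and no 2 matches overlapped. Within the 4 printed windows the AGGAAG strings stood both in genes with a lower mean and in Emcn, with a higher one.

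Signals are given as log2 units above the array mean. The log10 signals of each array were set to mean 0 and SD 1, as the authors had done, and multiplied by 1.57, the mean SD of the log2 signals. Median signals were 150 to 202 on WT and 122 to 238 on mINDY-KO arrays, with the lowest values on mINDY-KO replicates 4 (122) and 3 (127). All 8 genes of the cortex list and 7 of 8 chromaffin genes passed the detection filter described next, which bears on the tissue label. Slc13a5 itself was below the detection limit on all 11 arrays (detection p from 0.0714 to 0.357), and so the genotype labels could not be checked. Only probes detected (p under 0.05) in 5 or more of the 10 mice were tested, a filter that all 12 member probes passed among 13341 probes in all. The mice are separate animals by their labels.

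None of the 10 genes passed the test between genotypes after correction for the number of probes. With limma and Benjamini-Hochberg adjustment over all probes, 0 of 12 member probes passed an adjusted p of 0.05, against 0.015% of all probes (2 of 13341, 1 higher and 1 lower, 0.0075% each). At an unadjusted p under 0.05 there were 2 member probes, Tie1 and Tek, both with a lower mean in mINDY-KO mice, where the background was 10.9% in either direction with 6.65% for lower and 4.29% for higher means. None of the 12 probes had groups without overlap, a state reached by 2.06% of all probes. With the brightest probe of each gene, 8 of 10 genes had a lower mean in mINDY-KO mice, as did 56.4% of all genes measured (43.6% had a higher one). By probe the counts were 10 of 12 and 55.9%. Their median log2 fold change was -0.072 beside -0.019 over all 9302 genes. The 95% intervals of the 12 probes, each without correction, reached from -0.40 (Eng) to 0.26 (the first Pecam1 probe) on the log2 scale. A difference within the interval of its own probe was not excluded.

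**Figure D1:**
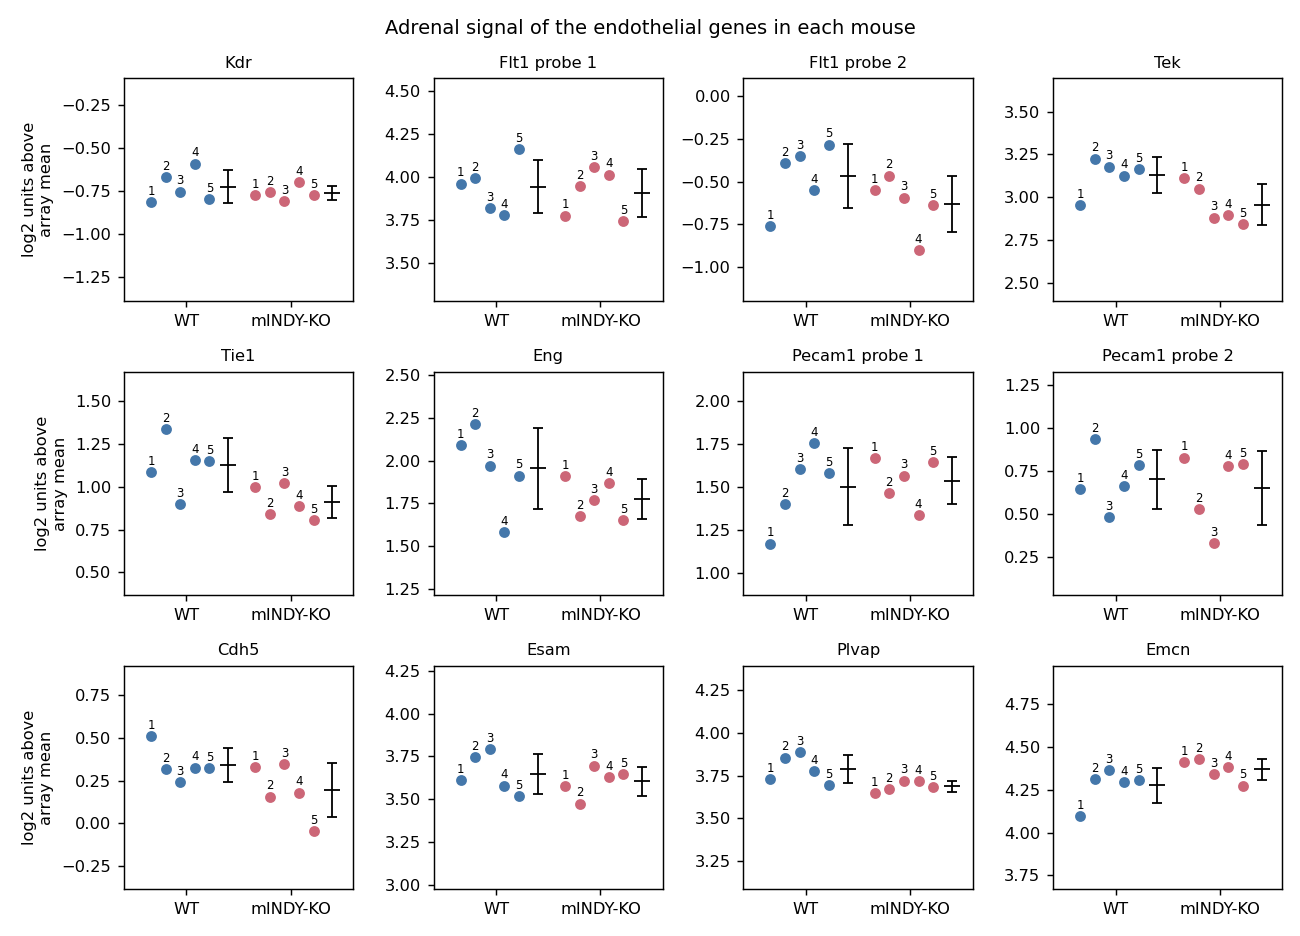
Signal of each member probe in each mouse (y axis: log2 units above the array mean, the same span of 1.3 log2 units in every panel; x axis: genotype). Points are mice numbered by replicate, bars the mean and SD of 5 mice. Tie1 and Tek lie lower in most mINDY-KO mice, Emcn lies higher in 3 of them, and no panel shows separate groups.

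The angiopoietin receptor pair, Tie1 and Tek, had the lowest p-values among the members. Tie1 (probe ILMN_2928560) was at 1.08, 1.34, 0.90, 1.15 and 1.15 log2 units in WT replicates 1 to 5. In mINDY-KO replicates 1 to 5 it was at 1.00, 0.84, 1.02, 0.89 and 0.81. All 5 mINDY-KO mice lay below the WT mean and 3 below every WT mouse, while WT replicate 3 fell within the mINDY-KO range. The means were 1.12 ± 0.16 and 0.91 ± 0.096 (SD, n = 5 each), a log2 fold change, with its standard error (SE), of -0.21 (SE 0.085, limma adjusted p = 0.380), or 0.862 times the WT level with a 95% interval from 0.761 to 0.977.

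Tek (probe ILMN_1220170), the receptor itself, was at 2.95, 3.23, 3.18, 3.13 and 3.16 in WT replicates 1 to 5 and at 3.11, 3.05, 2.88, 2.90 and 2.84 in mINDY-KO replicates 1 to 5. WT replicate 1 was the single WT mouse as low as the mINDY-KO mice, of which 3 lay below every WT mouse. Its log2 fold change was -0.17 (SE 0.078, limma adjusted p = 0.447), which is 0.888 times the WT level with an interval from 0.790 to 0.997. Without WT replicate 1 the value was -0.22 (limma adjusted p = 0.495), and without mINDY-KO replicates 3 and 4, left out because of their low signal once the values were known, it was -0.13 (limma adjusted p = 0.616).

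Eng, the coreceptor, showed a difference of like size with a wider spread. Its probe read 2.09, 2.21, 1.97, 1.58 and 1.91 in WT mice and 1.91, 1.68, 1.77, 1.87 and 1.65 in mINDY-KO mice, in the order of the replicate numbers. WT replicate 4 had the lowest value of all 10 mice, below every mINDY-KO mouse. The log2 fold change was -0.18 (SE 0.10, limma adjusted p = 0.577), and it ranged from -0.11 without WT replicate 2 (limma adjusted p = 0.833) to -0.27 without WT replicate 4 (limma adjusted p = 0.267).

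Of the VEGF receptors, neither had a difference beyond the spread. Kdr gave signals of 128 to 249, close to the detection limit, with a detection p of up to 0.058, so that its probe says little about Kdr RNA. Its values spanned -0.81 to -0.59 among WT and -0.81 to -0.70 among mINDY-KO mice, a log2 fold change of -0.038 (SE 0.067, limma adjusted p = 0.880). The brighter Flt1 probe (ILMN_1227926, signals of 2669 to 8027) averaged 3.94 ± 0.15 over WT and 3.91 ± 0.14 over mINDY-KO animals (SD, n = 5 each), for a log2 fold change of -0.037 (SE 0.090, limma adjusted p = 0.923). The values, 3.78 to 4.16 among WT and 3.74 to 4.06 among mINDY-KO mice, overlapped almost fully. The sign of the difference turned without WT replicate 5 (0.019) or without mINDY-KO replicate 5 (0.0042). The dim Flt1 probe (ILMN_2732721), which was detected in 9 of 10 mice, spanned -0.76 to -0.28 among WT and -0.90 to -0.46 among mINDY-KO mice, a log2 fold change of -0.16 (SE 0.10, limma adjusted p = 0.606). This value was -0.41 with neqc background correction and -0.094 without mINDY-KO replicate 4. Over the 10 mice, with genotype means removed, the 2 Flt1 probes were correlated with r = 0.056, so that they did not rank the mice alike.

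Among junction proteins, VE-cadherin had the largest difference. Cdh5 was at 0.51, 0.32, 0.24, 0.33 and 0.32 in WT and at 0.33, 0.16, 0.35, 0.18 and -0.045 in mINDY-KO replicates 1 to 5. The groups overlapped, with 3 mINDY-KO mice below every WT mouse and mINDY-KO replicate 5 the lowest of all. The log2 fold change was -0.15 (SE 0.085, limma adjusted p = 0.559), and without that mouse it was -0.09 (limma adjusted p = 0.729). Esam, an immunoglobulin-like adhesion protein of tight junctions, was at 3.65 ± 0.12 and 3.61 ± 0.084 (SD, n = 5 each; log2 fold change -0.043, SE 0.075, limma adjusted p = 0.875). With 1 mouse left out the Esam value lay between -0.00803 (without WT replicate 3) and -0.0765 (without WT replicate 5), with -0.0107 without mINDY-KO replicate 2. Its values overlapped (3.52 to 3.79 among WT and 3.47 to 3.70 among mINDY-KO mice). The 2 probes of Pecam1 are annotated to different RefSeq transcripts and had log2 fold changes of opposite signs, 0.033 (SE 0.11, limma adjusted p = 0.941) and -0.049 (SE 0.11, limma adjusted p = 0.908). The first spanned 1.17 to 1.76 among WT and 1.34 to 1.67 among mINDY-KO mice, and the second 0.48 to 0.93 among WT and 0.33 to 0.83 among mINDY-KO mice. PECAM-1 is also carried by platelets and leukocytes. The first probe turned negative without WT replicate 1 (-0.05) or mINDY-KO replicate 1 (-1.4e-04), and the second turned positive without WT replicate 2 (0.0092), without mINDY-KO replicate 3 (0.031) or without mINDY-KO replicates 3 and 4 together (0.016). As with Flt1, the probes did not follow each other over the 10 mice (r = -0.064).

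The diaphragm protein Plvap and the sialomucin Emcn, the surface proteins, pointed in opposite directions. Plvap was at 3.73, 3.85, 3.89, 3.78 and 3.70 in WT mice. In mINDY-KO mice it was at 3.65, 3.67, 3.72, 3.72 and 3.68, a narrow group that lay below the WT mean in 5 of 5 mice and below every WT mouse in 3. Its log2 fold change was -0.10 (SE 0.065, limma adjusted p = 0.614), or 0.932 times the WT level with an interval from 0.847 to 1.03.

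Emcn was at 4.10, 4.31, 4.36, 4.30 and 4.31 in WT mice and at 4.41, 4.43, 4.34, 4.38 and 4.27 in mINDY-KO mice. WT replicate 1 stood below the other WT mice, and 3 of the mINDY-KO values exceeded all WT values. The log2 fold change was 0.093 (SE 0.071, limma adjusted p = 0.675), or 1.07 times the WT level with an interval from 0.961 to 1.18. Leaving out WT replicate 1 brought it to 0.049 (limma adjusted p = 0.91), and neqc and quantile normalization gave 0.056 each.

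**Figure D2:**
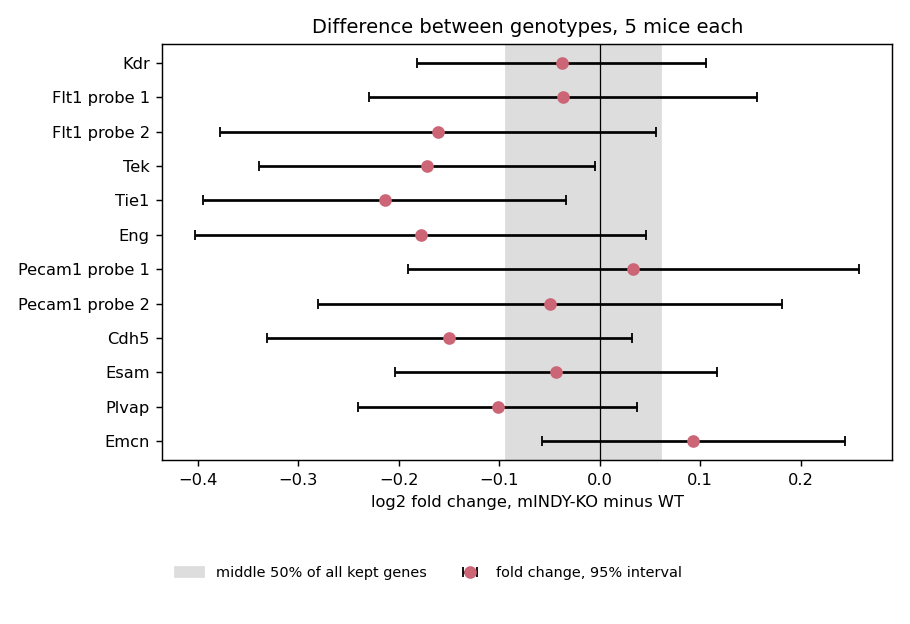
Log2 fold change of each member probe (x axis, mINDY-KO minus WT, 5 mice each) with its 95% interval from limma, by probe (y axis). The grey band holds the middle 50% of all 9302 genes, from -0.094 to 0.061. The intervals of Tie1 and Tek are the 2 that do not reach 0, before correction for the number of probes.

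Mouse by mouse, the mean over the 10 genes was 2.24, 2.37, 2.30, 2.28 and 2.30 in WT and 2.27, 2.19, 2.26, 2.22 and 2.15 in mINDY-KO replicates 1 to 5. Levels of different probes are not comparable, and this mean serves only to place a mouse against the others. The groups overlapped through WT replicate 1 and mINDY-KO replicates 1 and 3. mINDY-KO replicate 5, lowest of all, was below the WT mean for 9 of the 10 genes and had the lowest value of all mice for 4 of them. In that mouse the mean of the 4 measured adipocyte genes was also the highest, at 0.62 against -0.59 to -0.19 in other mINDY-KO mice and -0.65 to -0.25 in WT mice. The adipocyte mean of mINDY-KO replicates 1, 2 and 3 (-0.21, -0.19 and -0.23) also exceeded that of every WT mouse, while that of mINDY-KO replicate 4 (-0.59) did not. The part of the adipocyte signal in the endothelial values was not tested. Without mINDY-KO replicate 5 the median log2 fold change of the members was unchanged to 2 decimals (-0.07), while single genes moved in both directions. Cdh5 went from -0.15 to -0.0901, Eng from -0.178 to -0.147 and Tek from -0.172 to -0.144. Esam went down from -0.0434 to -0.0539, both Pecam1 probes went down too, and Plvap stayed at -0.101.

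As a measure of technical error, the 2 arrays of WT replicate 1 differed by a median of 0.082 log2 units over the 12 probes, close to the 0.090 over all probes tested, and by at most 0.25 (the bright Flt1 probe). The fold change was larger than that gap for Tie1 (gap 0.093), Tek (0.035), Emcn (0.045), Esam (0.0064) and the second probes of Flt1 (0.062) and Pecam1 (0.036). It was smaller than the gap for Kdr (0.19), Eng (0.18), Cdh5 (0.17), Plvap (0.11) and the first probes of Flt1 and Pecam1 (0.071). For each probe the gap is a single draw from a single mouse, while the fold change compares means of 5 mice. This order of the probes therefore cannot tell which differences exceed technical error.

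Variation from mouse to mouse was little shared among the endothelial genes. With genotype means removed, the 45 pairs of members had a median Pearson r of 0.028 over the 10 mice, 26 of them above 0, beside a median of 0.025 over all pairs of the 9302 genes. These points share arrays and normalization, and with 10 mice any single r is imprecise. A pair of correlations stood high, picked as the highest of the 45, which favours large values. Esam and Plvap had r = 0.86, which was 0.72 without the 2 mice farthest from the median of Esam (WT replicates 3 and 5). Tek and Emcn had r = 0.85, which was 0.76 without WT replicate 1 and mINDY-KO replicate 1, although their group means differed in opposite directions. Tie1 had r = 0.48 with Cdh5 (0.69 without WT replicates 2 and 3) and r = 0.25 with its partner Tek (0.048 without WT replicate 1 and mINDY-KO replicate 1). Eng and Pecam1 had r = -0.63, which was -0.41 without WT replicates 2 and 4.

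**Figure D3:**
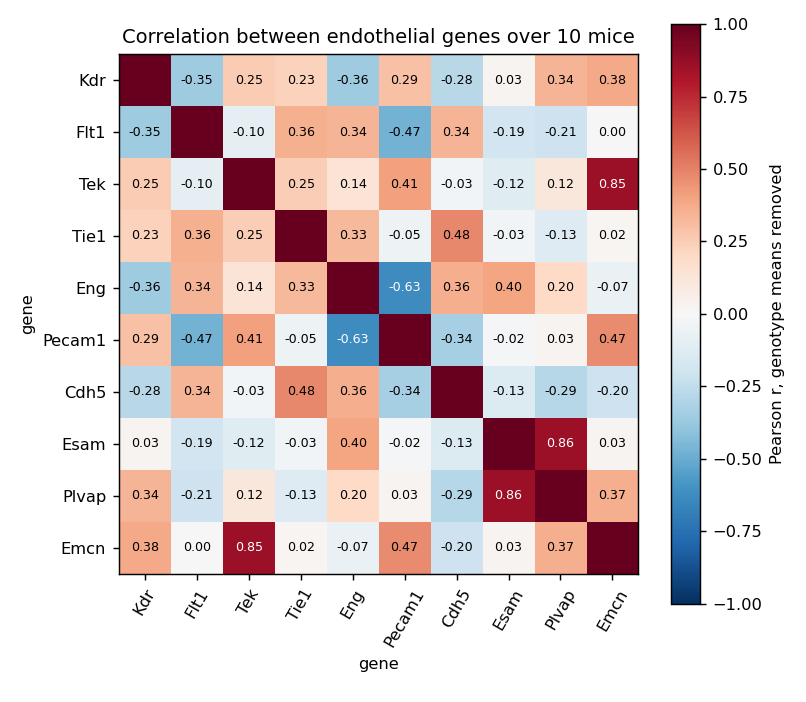
Pearson r (colour and printed value) between each pair of endothelial genes over 10 mice after removal of each genotype's mean, with genes on both axes. Esam with Plvap (0.86) and Tek with Emcn (0.85) stand out from a matrix whose median is 0.028.

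The 5 genes outside the set that followed the mean of the members most closely over the 10 mice were Crtap (r = 0.91), Grin2c (0.87), Sh3bp5 (0.86), Trmt9b (0.85) and Fam219b (0.84), the highest of 9292 genes compared. Log2 fold changes of these 5 ranged from -0.12 to 0.07, and none passed (limma adjusted p from 0.656 to 0.993). Picking the highest of so many r over 10 mice favours large values, and no test was made of them. The members did not all follow their own mean. With genotype means removed, r of a member with the mean of the others ran from -0.26 (Pecam1) to 0.50 (Tie1).

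Among ligands and partners of these receptors, none passed either. Angpt2, the ligand that opposes Tek activation in many settings, was at 0.73, 0.91, 0.81, 0.92 and 0.97 in WT and at 1.12, 1.42, 1.01, 0.97 and 1.03 in mINDY-KO replicates 1 to 5. Each mINDY-KO mouse exceeded each WT mouse, the nearest being at 0.968 and 0.966, and the log2 fold change was 0.24 (SE 0.090, limma adjusted p = 0.346). Angpt1 did not pass the detection filter. Of 9 measured genes in the list of angiopoietin and TGF-β partners, which holds ligands, receptors and SMADs, 6 had a higher and 3 a lower mean (median 0.024). Of the 9, 1 gene, Angpt2, had an unadjusted limma p under 0.05 (11.4% of all genes). Vegfa had a log2 fold change of -0.095 (SE 0.15, limma adjusted p = 0.857), and its coreceptor Nrp1 of -0.11 (SE 0.10, limma adjusted p = 0.756). Of the 6 measured VEGF ligands and coreceptors 2 had a higher and 4 a lower mean (median -0.051).

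Unlike the endothelial transcription factors below, the list of other endothelial genes leaned the other way from the members. It had a higher mean in 17 of 25 measured genes (43.6% of all genes had one) and a median of 0.057. A single gene of this list passed, Gpihbp1, which carries lipoprotein lipase to the capillary lumen and rose by 0.72 (SE 0.092, limma adjusted p = 0.0204). It was the 1 higher call over all probes. No probe was called higher with neqc, median centring or no detection filter, or without mINDY-KO replicates 3 and 4. WT mice spanned 1.24 to 1.73 and mINDY-KO mice 2.04 to 2.34. With 1 mouse left out the log2 fold change was 0.66 to 0.78. The limma adjusted p then ranged from 0.00507 to 0.116 and was above 0.05 in 6 of the 10 cases (WT replicates 1, 2, 3 and 5, mINDY-KO replicates 1 and 3). Esm1, a proteoglycan of VEGF-exposed endothelium, had a log2 fold change of 0.41 (SE 0.12, limma adjusted p = 0.245), with 3 mINDY-KO mice above every WT mouse. Von Willebrand factor (Vwf), which is stored in endothelial cells and binds platelets, had one of -0.27 (SE 0.081, limma adjusted p = 0.243), with 4 mINDY-KO mice below every WT mouse.

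Of 18 measured transcription factors of endothelium, 13 had a lower mean and 5 a higher one (median -0.039), none past the test. Nr2f2, which sets venous identity but is also made by cortical and mesenchymal cells, had a log2 fold change of -0.61 (SE 0.12, limma adjusted p = 0.133), and Mef2c, which is also a muscle and neuronal factor, one of -0.54 (SE 0.11, limma adjusted p = 0.133). For both, the highest mINDY-KO mouse was under the lowest WT mouse. Sox17, a factor of arterial endothelium, had a log2 fold change of -0.32 (SE 0.11, limma adjusted p = 0.297). The ETS factors Fli1, Ets1, Ets2 and Elk3 had log2 fold changes between -0.062 (Elk3) and -0.031 (Fli1), and Erg did not pass the detection filter.

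**Figure D4:**
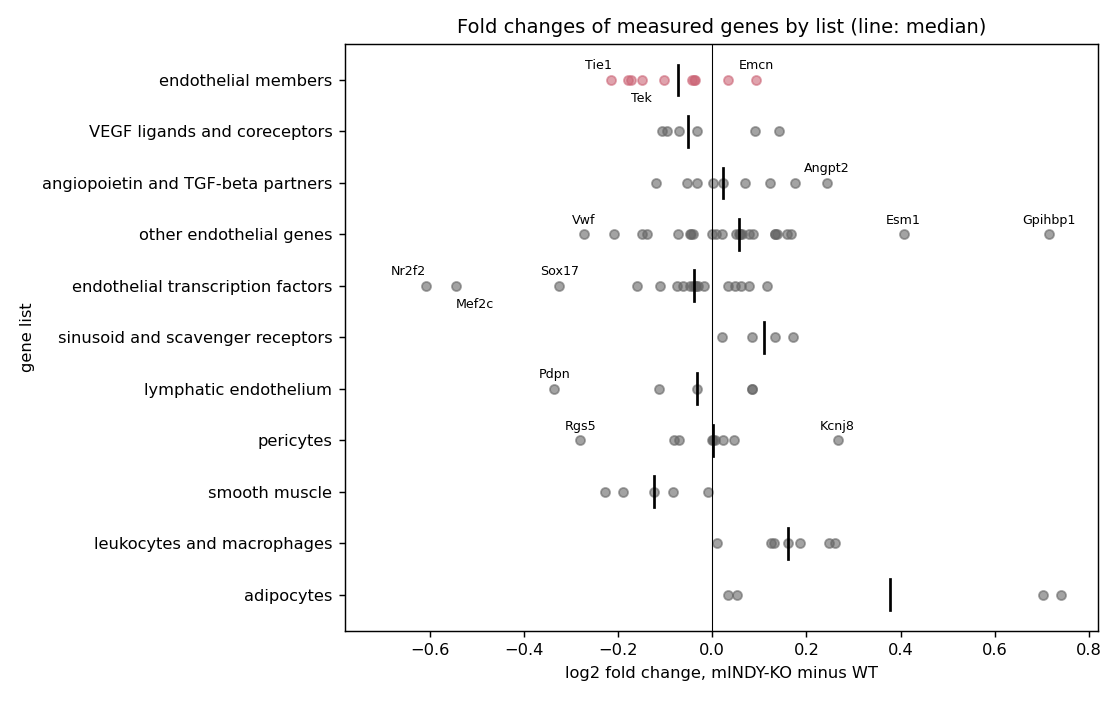
Log2 fold change (x axis, mINDY-KO minus WT) of every measured gene in the endothelial members and in related gene lists (y axis), with a line at each list's median. The members have a median of -0.072 and other endothelial genes one of 0.057, and Gpihbp1 is the one gene shown that passed the test.

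Other cell types that touch or could mimic the endothelial signal were measured the same way, and none of their genes passed. The 9 pericyte genes split into 5 higher and 4 lower with a median of 0.0013, with log2 fold changes of 0.27 for Kcnj8 (SE 0.078, limma adjusted p = 0.234) and -0.28 for Rgs5 (SE 0.096, limma adjusted p = 0.316). All 5 smooth muscle genes had lower means (median -0.12), with a list mean of 1.42 to 1.54 per mouse in WT and 1.23 to 1.46 in mINDY-KO mice. All 7 leukocyte and macrophage genes had higher means (median 0.16), with list means of 1.58 to 2.08 and 1.78 to 2.20, while Ptprc, which defines leukocytes, did not pass the detection filter. Of the lymphatic genes 2 of 5 were higher, and podoplanin (Pdpn) had a log2 fold change of -0.34 (SE 0.098, limma adjusted p = 0.234). In the list of sinusoid and scavenger receptors 4 of 4 measured genes had higher means (Mrc1, Fcgr2b, Lyve1 and Stab1, median 0.11). Lyve1 is also in the lymphatic list, and which cells gave these signals was not tested. Cd36 and Clec1b were below the detection filter, as were Stab2 and Clec4g, which mark liver sinusoids. Of the platelet genes 2 of 6 were measured, and Pf4 had a log2 fold change of 0.0096 (SE 0.11, limma adjusted p = 0.986). The lists with the medians farthest from 0 were those of adipocytes and chromaffin cells. All 4 measured adipocyte genes had higher means (median 0.38), with log2 fold changes of 0.74 for Car3 (SE 0.26, limma adjusted p = 0.328) and 0.70 for the adipokine Adipoq (SE 0.26, limma adjusted p = 0.348). Among mINDY-KO mice Car3 spanned -0.78 to 1.25 and Adipoq -0.65 to 1.16. The log2 fold changes of Plin1 (0.033, SE 0.11) and Lep (0.052, SE 0.082) were small. Cidec, Fabp4, Retn and Ucp1 did not pass the detection filter. Of the 7 measured chromaffin genes 6 had lower means (median -0.20), with a list mean of 3.88 to 4.50 in WT and 3.64 to 4.27 in mINDY-KO mice. Ddc, an enzyme of catecholamine synthesis, had a log2 fold change of -0.35 (SE 0.087, limma adjusted p = 0.170), each mINDY-KO mouse being below the lowest WT mouse. The part of these cell types in the values of the members was not tested.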

How the data were processed

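Adrenal RNA of 5 mINDY-KO and 5 WT mice was measured on 11 Illumina bead arrays. The authors deposited the signal intensity of each probe and its detection p-value, from the software GenomeStudio (2011.1, per the submitters' processing notes) and not normalized across arrays, and a table of Z scores. The deposited Z scores equal the log10 signals minus the array mean over the array SD, to within 0.0102. 

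The same Z scores were calculated here from the signals and scaled by 1.57. The scaled values of both arrays of WT replicate 1 were averaged before the fit. Genotypes were compared with limma (version 3.58.1, R 4.3.3, two-sided, Benjamini-Hochberg over 13341 probes), and the fit was tested on simulated data. For lists, the brightest tested probe of a gene was used. Symbols came from the platform annotation (23978 of 25697 probes with 1 symbol, 1719 unnamed here, 0 member symbols changed by RefSeq). Named genes were all members, up to 3 genes a list by smallest p with some added for their role after their values were seen, and the 5 most alike by correlation. The members and lists were chosen with earlier results of these data known. The alternatives were other normalizations (neqc, quantile, median centring, the deposited Z scores), filters, treatments of the repeat array, a replicate block, array weights, an intensity trend, the ANOVA of the methods, and leaving out mice. Slide positions and background correction: not given in the sources used here. The number of arrays limits the precision. Promoter windows are from RefSeq (GRCm38.p6). Figures were drawn with matplotlib (version 3.10.9).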

Additional observations from a re-analysis of the deposited data

Results flagged for a closer look

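In 24 groups of 5 mice, the 12 member probes in each genotype, 1 value lay apart from its group by Dixon's criterion, which chance meets in about 1 group of 20. Emcn was at 4.1 in WT replicate 1, while the other WT mice were at 4.3 to 4.36, a gap of 0.74 of the range of the group against a limit of 0.71.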

How the results depend on the processing

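No member probe passed under any of the 23 alternatives, and the median over the members stayed negative in the 22 that gave one, from -0.12 to -0.055 (-0.10 to -0.055 when 1 mouse was left out). Tie1, Tek, Eng, Cdh5, Plvap, Esam, Kdr and the dim Flt1 probe kept a negative and Emcn a positive sign wherever they were fitted (Kdr was dropped at detection p under 0.01). Kdr, near its detection limit, was -0.00448 without WT replicate 4. The sign turned in 7 of 263 values of member probes, those of the bright Flt1 probe (0.0187 without WT replicate 5, 0.0042 without mINDY-KO replicate 5; range -0.078 to 0.019 with 1 mouse left out), Pecam1 probe 1 (-0.0497 without WT replicate 1, -0.00014 without mINDY-KO replicate 1; highest 0.097) and Pecam1 probe 2 (range -0.10 to 0.031, 0.0155 when mINDY-KO replicates 3 and 4 were dropped, which was decided with the data in view). The cause was not tested. Over all probes, the 1 higher and 1 lower call became 0 and 0 with neqc, median centring, no detection filter or once mINDY-KO replicates 3 and 4 were dropped. They became 2 higher with quantile normalization and 3 higher and 3 lower with an intensity trend. There were 2 lower at detection p under 0.01 and 0 lower with the deposited Z scores. With the thresholds of the methods there were 37 higher and 74 lower. These were an ANOVA p under 0.05, a Z ratio beyond 1.5 in either direction and a false discovery rate under 0.3. Over all probes 1383 had an ANOVA p under 0.05, and 0 had a Benjamini-Hochberg adjusted p under 0.05. Of the member probes, 3 had an ANOVA p under 0.05, and Tie1 alone had a Z ratio beyond 1.5 (-1.6). No member probe met all the thresholds. Leaving out 1 mouse gave 0 to 10 higher and 0 to 4 lower calls, the highest counts without mINDY-KO replicate 2. With the replicate number as a block there were 0 lower calls. The main fit did not pair mice by number. Deviations of same-numbered mice correlated at -0.30 to -0.11, which cannot tell whether such mice shared a litter or a run.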
